A study of Homo sapiens with 27 samples.

Results

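Aminoacyl-tRNA synthetases, the enzymes that attach each amino acid to its transfer RNA, were described by 36 genes chosen by symbol, of 23228 gene symbols in the table. Of these, 20 encode enzymes of the cytosol (symbols with no suffix 2) and 16 encode enzymes of mitochondria (symbols with the suffix 2). RNA was sequenced from 3 human castration-resistant prostate cancer lines, labelled Ch-CRPC and named DU145-DR, ARCaPM-DR and 22Rv1-DR; the labels spell out neither Ch nor DR. In each line 3 groups were made: a random control hairpin, and the hairpins shGATA2a and shGATA2b, which target GATA2, a zinc-finger transcription factor. All 9 groups thus carried a hairpin. Each group had 3 libraries, 27 in all, and each line is a single cell line. Whether the replicates were grown apart is not stated, and the p-values reflect only variation among these libraries, which could be technical.

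Protein synthesis in the cytosol and in mitochondria uses separate pools of charged transfer RNA. Most amino acids therefore have a nuclear gene for each compartment, while EPRS joins glutamyl and prolyl charging in a single cytosolic protein, FARSA and FARSB encode the subunits of the phenylalanyl enzyme, and GARS and KARS each give rise to both the cytosolic and the mitochondrial enzyme. Many cytosolic synthetase genes are known targets of ATF4, the transcription factor induced when amino acids are scarce, and WARS is also a known interferon-induced gene.

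The recovered depth ran from 3435702 to 19396302 reads per library, with a median of 12866049, and the enzymes took between 0.441% and 0.824% of the reads. All 972 member values were above 0 and whole numbers of reads, and all 36 genes passed the filter in every line. GATA2 fell in each line, by 1.85 (DU145-DR), 1.71 (22Rv1-DR) and 2.56 (ARCaPM-DR) on the log2(value + 1) scale, but 5 of 9 GATA2 values in DU145-DR and 7 of 9 in 22Rv1-DR were not whole reads, which limits it as a check of those labels. The prostate marker KLK3 was at 0 in every library of DU145-DR and ARCaPM-DR. Summed blood cell and endothelial markers stayed below 10 in each library. The collagen COL3A1, 1 of 4 fibroblast markers, rose with knockdown in ARCaPM-DR. It went from 2198 ± 1027 (SD, n = 3) to 8650 ± 3360 (SD, n = 6, adjusted p = 0.00878). In ARCaPM-DR controls COL1A1 averaged 1649, but DCN 0.72 and LUM 0.44. Fibroblast markers were not confined to that line: in 22Rv1-DR controls COL1A1 stood at 1879 ± 1811 and LUM at 502 ± 176 (SD, n = 3). The part of these markers in the results below was not tested. One library stood apart, over all genes as well as for the cytosolic enzymes. In 22Rv1-DR Control replicate 3 the 20 cytosolic genes summed to 96210, against 65410 and 74200 in replicates 1 and 2 of that group. Of the 20, 17 lay above the group mean, and so did 8 of the 16 mitochondrial genes. The median log2 deviation from replicates 1 and 2 was 0.31 in the cytosolic genes and 0.06 over all genes. Over all genes its median absolute deviation, 0.43, was the largest of any library.

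Promoters are shown first, because the response of the family to amino acid stress is known to act through them. Windows of 250 bases before the RefSeq gene start (GRCh38.p14) were matched for 30 of the 36 genes. The stretches below lie outside annotated exons. They show 2 of the 3 members with the element TGATGNAA, which ATF4 and its partners recognise (AARS and YARS2), 2 of the 3 with the E-box CACGTG that MYC recognises (IARS and MARS2), and LARS2, whose transcript changed most with knockdown. Capitals mark the motif matches, and a match on the opposite strand reads as the reverse complement.

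AARS (chr16:70289544-70289756, minus strand): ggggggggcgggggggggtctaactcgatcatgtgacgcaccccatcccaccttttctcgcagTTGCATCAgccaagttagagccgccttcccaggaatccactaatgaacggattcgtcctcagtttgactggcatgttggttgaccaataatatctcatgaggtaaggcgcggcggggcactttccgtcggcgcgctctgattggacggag

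YARS2 (chr12:32755903-32756147, minus strand): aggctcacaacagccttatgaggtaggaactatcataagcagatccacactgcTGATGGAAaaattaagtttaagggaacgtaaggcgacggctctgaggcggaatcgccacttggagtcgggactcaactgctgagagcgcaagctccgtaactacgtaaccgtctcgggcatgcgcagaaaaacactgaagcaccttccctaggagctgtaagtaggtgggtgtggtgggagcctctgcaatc

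IARS (chr9:92293757-92293947, minus strand): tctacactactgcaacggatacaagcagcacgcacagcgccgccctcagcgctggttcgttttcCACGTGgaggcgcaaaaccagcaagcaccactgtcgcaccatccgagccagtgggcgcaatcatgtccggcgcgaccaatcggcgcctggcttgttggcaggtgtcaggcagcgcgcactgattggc

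MARS2 (chr2:197705119-197705368, plus strand): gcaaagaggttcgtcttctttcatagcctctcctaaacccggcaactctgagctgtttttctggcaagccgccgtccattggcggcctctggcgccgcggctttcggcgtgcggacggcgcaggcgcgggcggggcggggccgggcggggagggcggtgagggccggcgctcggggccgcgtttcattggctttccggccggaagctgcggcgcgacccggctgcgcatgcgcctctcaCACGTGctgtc

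LARS2 (chr3:45388326-45388505, plus strand): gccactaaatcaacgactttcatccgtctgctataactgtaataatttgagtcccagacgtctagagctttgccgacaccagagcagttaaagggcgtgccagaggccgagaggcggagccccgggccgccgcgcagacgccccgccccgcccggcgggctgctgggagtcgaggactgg

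Searched on both strands, TGATGNAA was in 3 of the 30 member windows and in 3.14% of 35116 windows of all genes. It began at position -187 in AARS, -197 in YARS2 and -13 in IARS, counted back from the RefSeq start, and the IARS match lies in the exonic part that is not printed. CACGTG was in 3 windows (IARS at -186, EARS2 at -15 and MARS2 at -11), beside 6.34% of all windows. The core of the interferon-stimulated response element was in 1 member window (3.02% of all), that of EARS2. The WARS window had no match to it and lies wholly in annotated exons. AGATAA, a form of the GATA motif, was in 1 member window (9.17% of all), that of FARSA. The LARS2 window held none of these 4 motifs. HARS and HARS2, the cytosolic and mitochondrial histidyl enzymes, start back to back on chromosome 5, with 84 bases between their RefSeq starts, and their annotated exons overlap by 402 bases.

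Before any knockdown, the control libraries gave the level of each enzyme. Levels between genes were compared per kilobase of annotated exon (GENCODE v29, GRCh38). The cytosolic genes had a median of 848 normalised reads per kilobase in DU145-DR, where the mitochondrial genes had 102. The medians were 785 and 156 in 22Rv1-DR, and 757 and 124 in ARCaPM-DR. AARS, the alanyl enzyme, was the highest of the 36 in all 3 lines and HARS the lowest cytosolic gene. IARS2, the mitochondrial isoleucyl enzyme, was the highest mitochondrial gene in each line, at 746, 945 and 780 normalised reads per kilobase, within the range of the cytosolic genes.

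**Figure D1:**
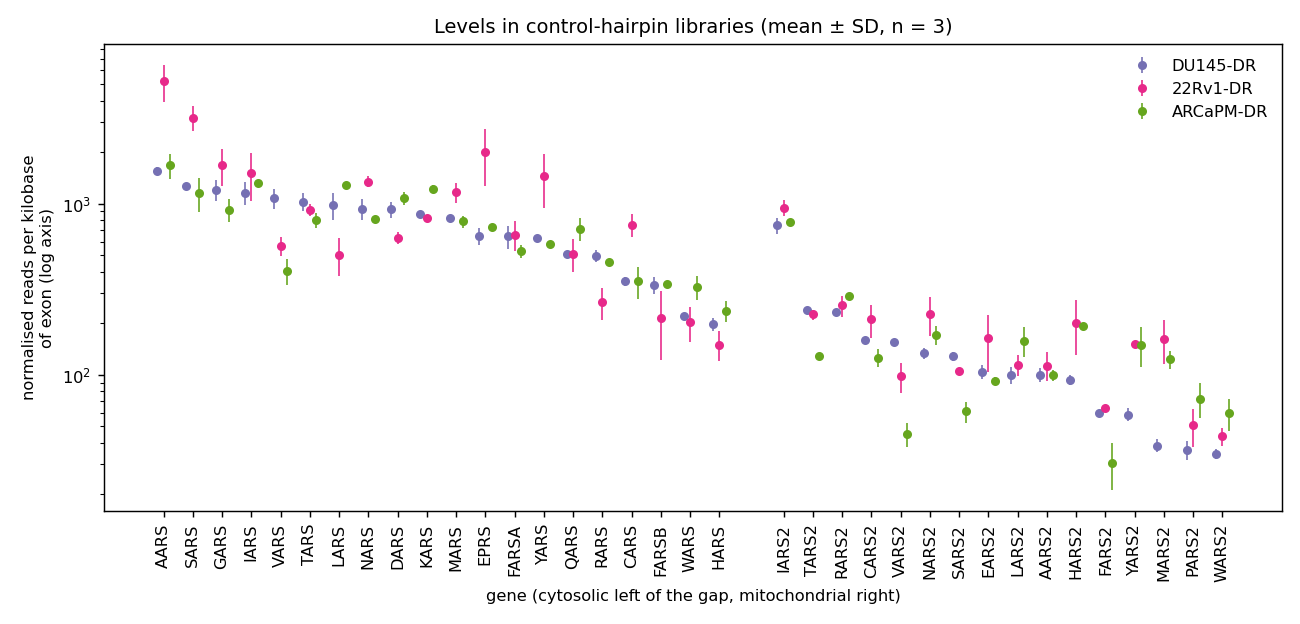
Level of each enzyme gene in the control-hairpin libraries, in normalised reads per kilobase of exon on a log axis, by line (points are means of 3 libraries, bars are SD). In DU145-DR the cytosolic genes have a median of 848 and the mitochondrial genes of 102, and IARS2, at 746, is the highest of the latter.

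The lines differed from each other in which enzymes were high. Between 22Rv1-DR and DU145-DR controls, 13 of 36 genes were higher in 22Rv1-DR and 7 lower (adjusted p under 0.05), where 35.2% of all genes were higher and 32.4% lower. MARS2, the mitochondrial methionyl enzyme, read 617, 511 and 340 in the 22Rv1-DR controls and 109, 113 and 128 in DU145-DR (log2 difference 2.02, SE 0.22, adjusted p = 9.1e-06). AARS read 13544, 18024 and 22333 against 5654, 5169 and 5416 (log2 difference 1.70, SE 0.21, adjusted p = 2.1e-05). EPRS read 8079, 7746 and 14243 against 2914, 3190 and 3659 (log2 difference 1.57, SE 0.22, adjusted p = 6.7e-05). The libraries of the 2 lines did not overlap for any of these genes, and the highest AARS and EPRS values were those of Control replicate 3. Without that library the log2 differences were 1.53 for AARS, 1.29 for EPRS and 2.26 for MARS2, and 19 of the 36 differed, beside 20 with it.

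In the opposite direction, LARS, RARS and VARS, the cytosolic leucyl, arginyl and valyl enzymes, were lower in 22Rv1-DR than in DU145-DR by log2 differences of -0.97, -0.92 and -0.92. The cytosolic genes were therefore split, with 7 higher and 6 lower and a median difference of 0.00, while the mitochondrial genes had 6 higher and 1 lower and a median of 0.34, beside 0.04 over all genes. SARS (1.31), YARS (1.15) and CARS (1.08) stood with AARS and EPRS among the higher cytosolic genes. SARS, YARS, CARS, LARS, RARS and VARS were singled out in this comparison after their values were seen.

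Genes of the ATF4 amino acid response also differed between these controls. Of 25 such genes, 19 were higher in 22Rv1-DR controls than in DU145-DR and 2 were lower, where 35.2% and 32.4% of all genes were. Their median log2 difference was 1.99. How far 22Rv1-DR Control replicate 3 shaped these values was not examined. ASNS, asparagine synthetase, stood at 8135 ± 559 (SD, n = 3) against 607 ± 47.1. DDIT3, a stress transcription factor, stood at 4006 ± 776 against 148 ± 19.4. SHMT2, the mitochondrial serine hydroxymethyltransferase, stood at 25558 ± 5308 against 2519 ± 126. ATF4 itself was at 9477 ± 1691 and 3559 ± 200. LARS, RARS and VARS were lower in the same 22Rv1-DR libraries. Whether the list and the enzymes are linked was not tested.

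ARCaPM-DR differed from DU145-DR in 14 genes, 9 higher and 5 lower (27.2% and 29% of all genes). VARS2, the mitochondrial valyl enzyme, read 161, 216 and 172 in ARCaPM-DR and 639, 662 and 610 in DU145-DR (log2 difference -1.80, SE 0.18, adjusted p = 7.4e-06). VARS followed in the same direction (-1.41, SE 0.17, adjusted p = 3e-05), and MARS2 was higher (1.66, SE 0.22, adjusted p = 6.6e-05). Both valyl enzymes were thus lower in ARCaPM-DR, with values that did not overlap those of DU145-DR. Of these 14 genes, 10 were mitochondrial. Between ARCaPM-DR and 22Rv1-DR, 9 genes were higher in ARCaPM-DR and 15 lower (30.8% and 36.4% of all genes), the largest being AARS (-1.61), SARS (-1.47) and EPRS (-1.40). These baseline comparisons share their control libraries, so they are not independent of each other.

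After GATA2 knockdown in DU145-DR, 3 of 36 enzyme genes rose and 4 fell, where 8.72% of all genes rose and 7.98% fell. In this fit, which did not pair libraries by replicate number, the called share of the family was close to the background. Counts from the paired fit differ and are given below. Of the 7, 6 were cytosolic. WARS, RARS and MARS rose and AARS, QARS, YARS and HARS2 fell, each by less than 0.6 on the log2 scale. The median change was 0.11 over the 36 genes, 0.14 in the cytosolic and 0.04 in the mitochondrial genes, beside -0.00 over all genes. In bulk RNA, fewer cells of a kind and less RNA per cell cannot be told apart.

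WARS, the tryptophanyl enzyme, read 926, 959 and 925 in DU145-DR controls, 1253, 1326 and 1364 with shGATA2a and 1165, 1176 and 1338 with shGATA2b (log2 change 0.44, SE 0.08, adjusted p = 0.00359). RARS went from 1038, 1119 and 1208 to 1605, 1368 and 1546 with shGATA2a and 1603, 1279 and 1298 with shGATA2b (log2 change 0.37, SE 0.10, adjusted p = 0.0234). All 6 knockdown libraries lay above all 3 controls for both genes. MARS, the methionyl enzyme, rose from 2385 ± 81.3 (SD, n = 3) to 2924 ± 174 (SD, n = 6), a log2 change of 0.29 (SE 0.08, adjusted p = 0.0248).

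HARS2 had the largest change in that line. It read 271, 245 and 278 in controls, 140, 157 and 207 with shGATA2a and 177, 209 and 195 with shGATA2b (log2 change -0.56, SE 0.13, adjusted p = 0.0127). HARS, its divergent neighbour, went from 838 ± 71.8 to 914 ± 80.9, a log2 change of 0.12 (SE 0.10, adjusted p = 0.399). The overlap covers 14.2% of HARS2 exon bases and 9.5% of those of HARS. No source used here states whether reads were counted by strand, so reads from the overlap could not be assigned. The same holds for smaller opposite-strand exon overlaps of WARS with WDR25 (272 bases, 6.4% of WARS), YARS with S100PBP (248, 7.7%) and GARS with GARS-DT (99, 3.7%). SARS2 shares 67.4% of its exon bases with AC011455.2 on the same strand.

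AARS fell from 5654, 5169 and 5416 to 3611, 3696 and 3684 with shGATA2a and 4283, 4828 and 3936 with shGATA2b (log2 change -0.44, SE 0.08, adjusted p = 0.004). QARS, the glutaminyl enzyme, fell from 1468, 1526 and 1428 to 992, 1150 and 1135 with shGATA2a and 1130, 1332 and 1138 with shGATA2b (log2 change -0.37, SE 0.09, adjusted p = 0.0135). YARS, the tyrosyl enzyme, fell from 1932, 2085 and 2087 to 1465, 1667 and 1579 and to 1708, 1870 and 1626 (log2 change -0.30, SE 0.08, adjusted p = 0.0233). Knockdown libraries lay below all controls in each case, with shGATA2a the lower of the hairpins on average.

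In DU145-DR same-numbered libraries deviated together, and with the replicate number as a block 11 enzyme genes rose and 5 fell, where 19.6% and 19.2% of all genes did. The added risers included SARS, TARS, VARS, GARS, EARS2 and VARS2, and FARSA joined those that fell. With shGATA2a alone 3 rose and 4 fell (8.28% and 7.78% of all genes), and with shGATA2b alone WARS rose and none fell (3.29% and 2.52%). With the block these counts were 9 up and 5 down for shGATA2a (19.5% and 18.5% of all genes) and 8 up and 4 down for shGATA2b (13% and 13.3%). The counts were also sensitive to the controls: without Control replicate 1 they were 1 up and 1 down, without Control replicate 2 they were 1 and 2, and without Control replicate 3 they were 7 and 4. AARS and WARS passed the threshold in all 9 fits that left out a library, but in 1 fit of all 27 libraries their adjusted p was 0.0924 and 0.0716, and HARS2 was the 1 gene of the 7 that passed there (adjusted p = 0.0335, where 2.26% of all genes fell). Leaving out a library lost MARS in 4 of the 9 fits, RARS, QARS and YARS in 2 each and HARS2 in 1, with adjusted p of up to 0.125.

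**Figure D2:**
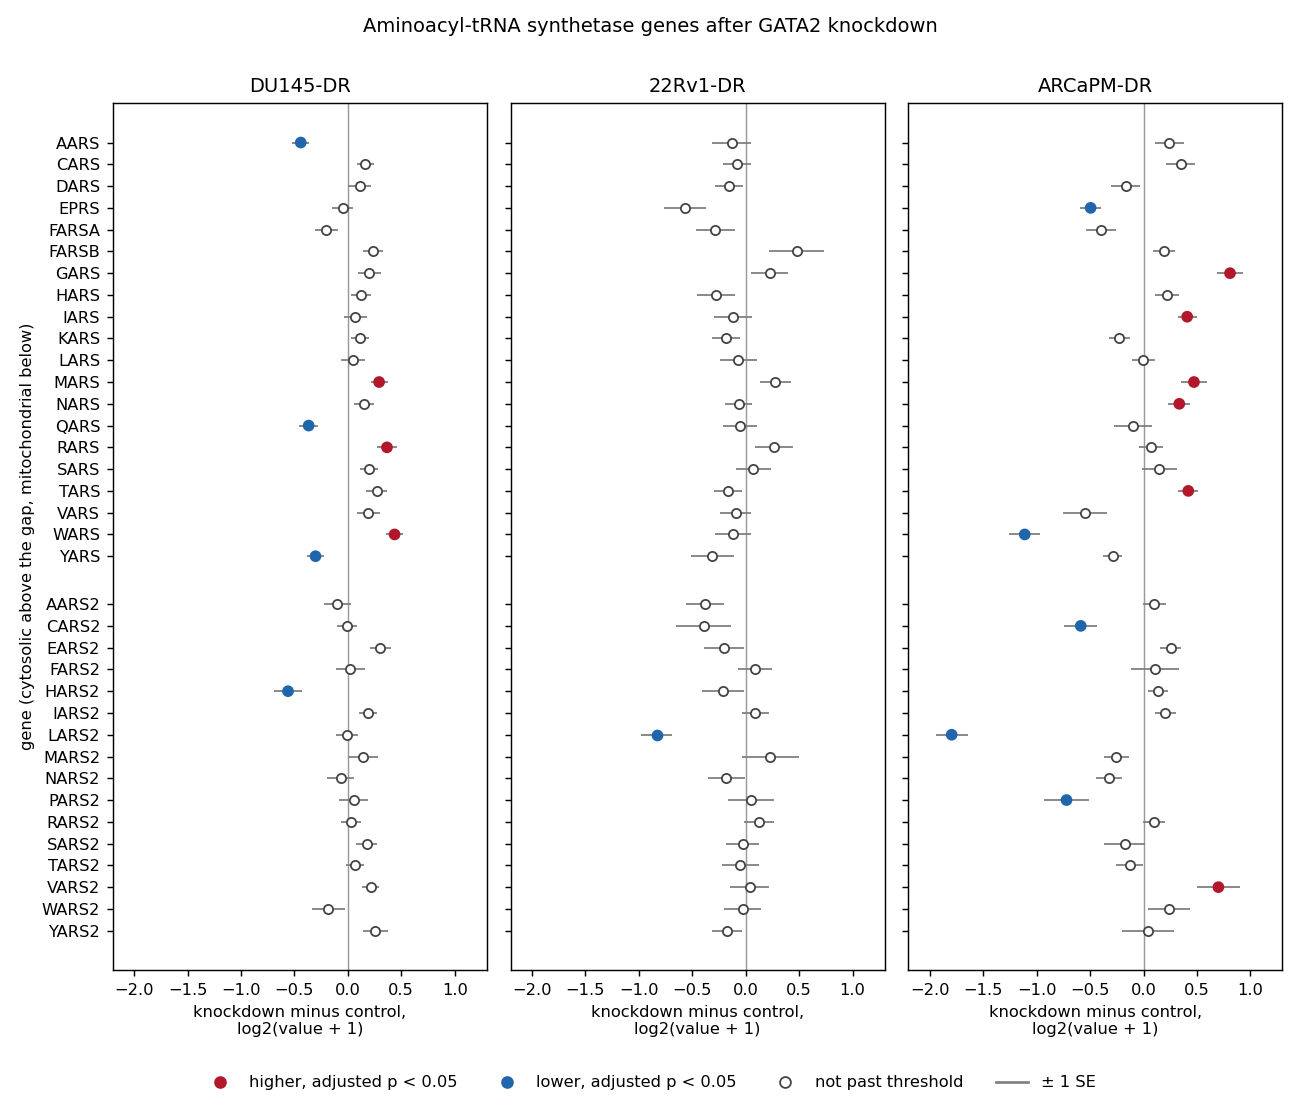
Change of each enzyme gene after GATA2 knockdown (mean of both hairpins minus control, log2(value + 1), ± 1 SE), with a panel per line and filled points past the adjusted threshold. DU145-DR has 3 genes higher and 4 lower, 22Rv1-DR has LARS2 lower, and ARCaPM-DR has 6 higher and 5 lower, with LARS2 at -1.80 and WARS at -1.11.

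In 22Rv1-DR 1 enzyme gene was called, LARS2, the mitochondrial leucyl enzyme, which fell (0.276% of all genes fell and 0.124% rose). It read 653, 492 and 615 in controls, 326, 324 and 321 with shGATA2a and 312, 370 and 308 with shGATA2b (log2 change -0.83, SE 0.15, adjusted p = 0.0364). All 6 knockdown libraries lay below all 3 controls, and the hairpins gave nearly the same mean. With the replicate number as a block the adjusted p was 0.0246, where 0.741% of all genes fell and 0.465% rose. Neither hairpin alone passed (adjusted p = 0.109 and 0.136), where 0% and 0.00727% of all genes fell. The call was lost in each of the 9 fits that left out a library (adjusted p 0.0682 to 0.186), and without the 58 genes with values that are not whole reads the adjusted p was 0.0977. That setting left 1 gene called in 22Rv1-DR out of 55, while the fold of LARS2 was the same, -0.83.

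Fitted on the 22Rv1-DR libraries alone, no other enzyme gene passed the threshold by limma, edgeR or DESeq2, where 2 members and 1379 genes had an unadjusted p under 0.05. EPRS was the second of the 2, and it passed in 1 fit of all 27 libraries (adjusted p = 0.0435, where 0.915% of all genes fell). It read 8079, 7746 and 14243 in controls, 6419, 5612 and 6865 with shGATA2a and 7124, 6107 and 6935 with shGATA2b (log2 change -0.57, SE 0.20, adjusted p = 0.381). The knockdown libraries lay below all controls, but without Control replicate 3 the log2 change of EPRS was -0.29, while that of LARS2 was -0.80. The median change of the 36 genes was -0.09, beside -0.02 over all genes, and without Control replicate 3 it was -0.00.

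ARCaPM-DR had the most enzyme genes called, 6 that rose and 5 that fell, where 9.86% of all genes rose and 8.62% fell. GARS, VARS2, MARS, TARS, IARS and NARS rose, 5 of them cytosolic. LARS2, WARS, PARS2, CARS2 and EPRS fell, 3 of them mitochondrial. The median change was 0.08 over the 36 genes, beside -0.00 over all genes, and the members spread from -1.80 to 0.81.

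LARS2 read 986, 668 and 776 in ARCaPM-DR controls, 189, 204 and 249 with shGATA2a and 246, 231 and 269 with shGATA2b (log2 change -1.80, SE 0.15, adjusted p = 8.6e-05). WARS read 1158, 1370 and 1612 in controls, 494, 664 and 567 with shGATA2a and 631, 676 and 805 with shGATA2b (log2 change -1.11, SE 0.14, adjusted p = 0.00082). GARS, the glycyl enzyme, went the other way, from 2053, 2813 and 2449 to 3290, 4283 and 4058 with shGATA2a and 4579, 4778 and 4633 with shGATA2b (log2 change 0.81, SE 0.12, adjusted p = 0.00203). For all 3 genes the knockdown libraries lay on one side of the controls and each hairpin alone passed the threshold.

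CARS2, the mitochondrial cysteinyl enzyme, fell from 266, 209 and 234 to 123, 131 and 179 with shGATA2a and 176, 159 and 178 with shGATA2b (log2 change -0.59, SE 0.16, adjusted p = 0.0277). EPRS fell from 3637, 3794 and 3507 to 2417, 2514 and 2958 and to 2404, 2676 and 2580 (log2 change -0.50, SE 0.10, adjusted p = 0.00711). MARS rose from 2162, 2491 and 2202 to 2812, 3610 and 2662 and to 3323, 3709 and 3004 (log2 change 0.47, SE 0.12, adjusted p = 0.0261). The groups did not overlap for these genes. IARS (0.41) and NARS (0.33) also rose without overlap, whereas TARS (0.42), VARS2 (0.70) and PARS2 (-0.72) passed the threshold with groups that overlapped.

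EPRS, GARS, IARS, WARS and LARS2 passed in every fit that left out a library. Of the others, NARS was lost in 8 of the 9 fits (adjusted p 0.0624 to 0.143), VARS2 in 6, CARS2 and PARS2 in 5 each, MARS in 3 and TARS in 2. NARS was also lost with no filter, with median-of-ratios scaling and in edgeR, with adjusted p of up to 0.0623. The number that rose was 2 without Control replicate 1 or Control replicate 3 and 3 without shGATA2b replicate 1. The number that fell was 3 without Control replicate 1, Control replicate 3, shGATA2a replicate 1, shGATA2b replicate 1 or shGATA2b replicate 2, and 8 without shGATA2a replicate 2.

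**Figure D3:**
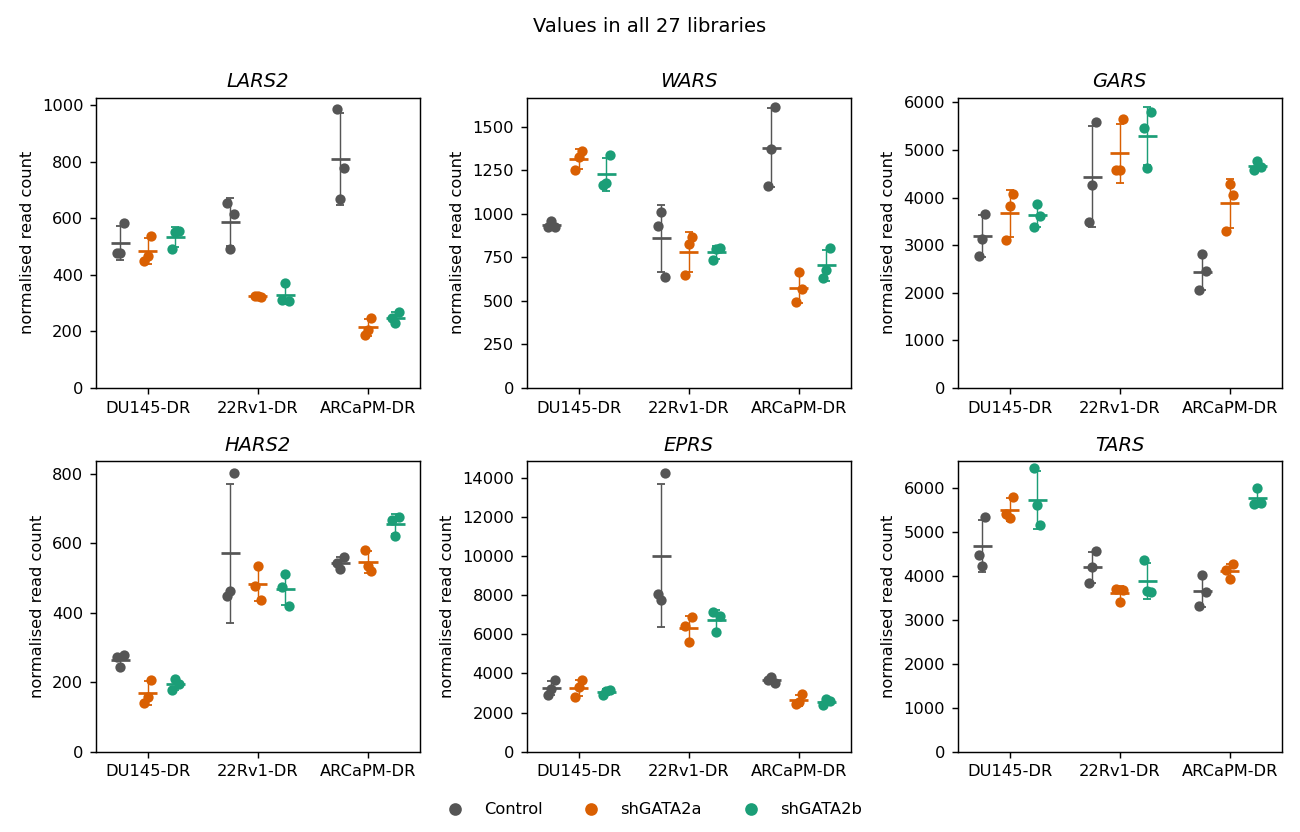
Normalised read count of LARS2, WARS, GARS, HARS2, EPRS and TARS in all 27 libraries, by line and hairpin (points are libraries, horizontal lines are means, bars are SD, n = 3). LARS2 is lower with both hairpins in 22Rv1-DR and ARCaPM-DR, WARS is higher in DU145-DR and lower in ARCaPM-DR, and 22Rv1-DR Control replicate 3 is the high EPRS and HARS2 point.

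Cytosolic and mitochondrial enzymes for the same amino acid had unlike changes in several pairs. In ARCaPM-DR LARS had a log2 change of -0.00 (SE 0.11) where LARS2 had -1.80, and WARS2 had 0.24 (SE 0.20) where WARS had -1.11. VARS read 1749 ± 298 in controls and 1214 ± 286 in knockdowns (log2 change -0.55, SE 0.21, adjusted p = 0.0928), where VARS2 rose by 0.70. For methionine, MARS rose by 0.47 and MARS2 had -0.26 (SE 0.12, adjusted p = 0.153). These differences within a pair were not tested.

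The hairpins were next compared with each other. In DU145-DR and in 22Rv1-DR 0 of 36 genes differed between shGATA2b and shGATA2a by limma, edgeR or DESeq2 (0% of all genes by limma), with 1 and 0 at an unadjusted p under 0.05. In ARCaPM-DR 1 gene differed, YARS, where 0.206% of all genes were higher with shGATA2b and 0.596% lower. YARS read 1765, 1892 and 1950 in controls, 1143, 1342 and 1267 with shGATA2a and 1844, 1924 and 1844 with shGATA2b (log2 difference between hairpins 0.58, SE 0.11, adjusted p = 0.0383). The shGATA2a libraries lay below the other 6. That call passed without shGATA2a replicate 2 and was lost without any other single library (adjusted p 0.0575 to 0.22).

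Most of the other cytosolic enzymes leaned the same way without passing the threshold. Values with shGATA2b were above those with shGATA2a in 18 of 20 cytosolic genes and 30 of 36 in all, beside 49.4% of all genes, with a median difference of 0.19. TARS, the threonyl enzyme, stood at 4106 ± 174 (SD, n = 3) with shGATA2a and 5772 ± 212 with shGATA2b (adjusted p = 0.0779). IARS stood at 7130 ± 606 and 9763 ± 363 (adjusted p = 0.0894). IARS, TARS, NARS, MARS, VARS2 and GARS were higher than control with shGATA2b alone (7.28% of all genes), and 4 genes were lower (7.21%). With shGATA2a alone GARS was the 1 gene higher (7.2%) and 6 were lower (5.63%). Both TARS and IARS had hairpin groups that did not overlap. The ATF4 list had a median hairpin difference of 0.29. In it PSAT1, a serine synthesis enzyme, was higher with shGATA2b by 0.75 (adjusted p = 0.042). SLC3A2, a subunit of amino acid exchangers listed with the transporters and not with the ATF4 genes, was higher by 0.84 (adjusted p = 0.0239). Whether these genes and the enzymes are linked was not tested.

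**Figure D4:**
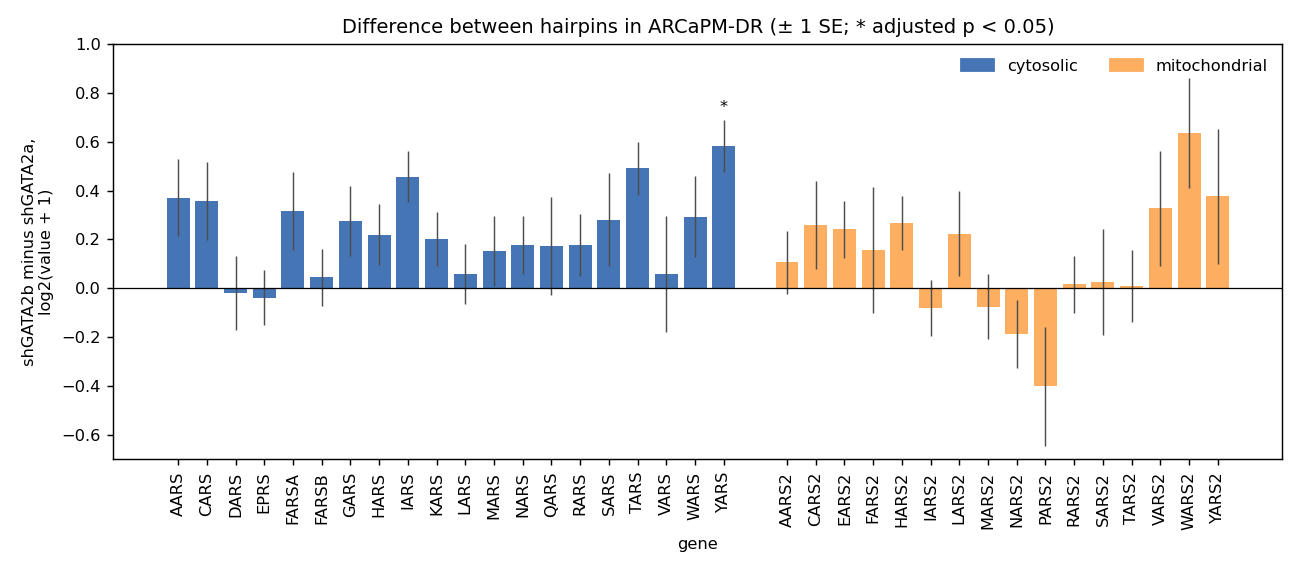
Difference between the hairpins in ARCaPM-DR for each enzyme gene (shGATA2b minus shGATA2a, log2(value + 1), bars with ± 1 SE), cytosolic and mitochondrial genes in separate colours. Of 36 bars 30 lie above 0, and YARS at 0.58 is the one past the adjusted threshold.

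The change with knockdown was compared between lines in a joint fit of all 27 libraries. It differed for 3 of 36 genes, LARS2, WARS and TARS, where 7% of all genes differed. WARS separated ARCaPM-DR from both other lines, by -1.55 (SE 0.19, adjusted p = 1.5e-05) against DU145-DR (3.71% of all genes higher, 3.41% lower) and -0.99 (SE 0.19, adjusted p = 0.00387) against 22Rv1-DR (2.19% higher, 1.2% lower, 3.39% in all). LARS2 differed in each pair, by -1.79 (SE 0.19, adjusted p = 1.7e-06) for ARCaPM-DR minus DU145-DR, -0.96 (SE 0.19, adjusted p = 0.00356) for ARCaPM-DR minus 22Rv1-DR and -0.82 (SE 0.19, adjusted p = 0.0294) for 22Rv1-DR minus DU145-DR (0.464% of all genes higher, 0.621% lower, 1.09% in all). In DU145-DR itself LARS2 read 513 ± 60.7 in controls and 509 ± 46.2 in knockdowns (log2 change -0.01, SE 0.10). TARS changed more in ARCaPM-DR than in 22Rv1-DR, by 0.58 (SE 0.15, adjusted p = 0.0244).

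Of the genes called in DU145-DR alone, AARS and HARS2 differed from ARCaPM-DR in that pairwise test, by 0.68 (SE 0.21, adjusted p = 0.0449) and 0.70 (SE 0.21, adjusted p = 0.0467) for ARCaPM-DR minus DU145-DR (7.13% of all genes in either direction), but not in the joint test of the 3 lines. Without 22Rv1-DR Control replicate 1, 5 members differed between the lines. With the replicate number as a block, 17 members differed between lines, where 26.2% of all genes did.

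Partners of the enzymes were followed through lists. QRSL1 and GATC encode subunits of the amidotransferase that makes mitochondrial glutaminyl-tRNA, and both rose in DU145-DR and in ARCaPM-DR. They were the 2 risers among 13 charging partners in each line, with none called lower, where 8.72% and 9.86% of all genes rose. PET112, the remaining subunit gene, was among the 13 and was called in neither line. GATC went from 655 ± 36 (SD, n = 3) to 1482 ± 128 (SD, n = 6) in ARCaPM-DR (log2 change 1.17) and from 473 ± 55 to 639 ± 22.2 in DU145-DR (0.44). QRSL1 changed by 0.62 and 0.63. In DU145-DR GATC was lost in 1 of 9 fits that left out a library, the one without Control replicate 2 (adjusted p = 0.0573). The median of the 13 was 0.21 in DU145-DR and 0.03 in ARCaPM-DR. In 22Rv1-DR 0 of the 13 passed by limma, edgeR or DESeq2, with 2 at an unadjusted p under 0.05.

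Of the 25 ATF4 response genes, 6 rose and none fell in DU145-DR (8.72% and 7.98% of all genes), among them VLDLR (0.93), GPT2 (0.40), SHMT2 (0.38) and DDIT3 (0.56), with a list median of 0.08. DDIT3 overlaps MARS by 62 exon bases on the opposite strand, 2.1% of MARS. Without Control replicate 1 the count that rose in DU145-DR was 3, and without Control replicate 3 there were 2 that fell. In ARCaPM-DR ALDH1L2 (0.92) and STC2 (0.65) rose and none fell (9.86% and 8.62% of all genes), with a median of 0.02. ALDH1L2 was low there, with a control mean of 17.4 ± 1.72 (SD, n = 3). The number that rose in ARCaPM-DR was 0 without Control replicate 1 or 2. It was 1 without shGATA2b replicate 1, shGATA2a replicate 3 or shGATA2b replicate 3, and 2 fell without shGATA2a replicate 2. In 22Rv1-DR 0 of 25 passed by limma or edgeR and 1 by DESeq2, with 3 at an unadjusted p under 0.05.

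Several amino acid transporters rose in ARCaPM-DR. Of 12, SLC7A11, the cystine carrier, SLC38A2, a neutral amino acid carrier, SLC3A2 and SLC7A5, the 2 subunits of the leucine exchanger, rose there and SLC38A1 fell, where 9.86% of all genes rose and 8.62% fell. The call of SLC38A1 passed in 3 of 9 fits that left out a library and was lost in 6 (adjusted p of up to 0.114), and that of SLC7A5 was lost in 2 (up to 0.0967). SLC38A2 went from 4332 ± 267 to 7823 ± 950 (log2 change 0.84), SLC3A2 from 2888 ± 303 to 5005 ± 1633 (0.73) and SLC7A5 from 7007 ± 910 to 14499 ± 6581 (0.92, with groups that overlapped). The list median was 0.30. In DU145-DR SLC7A11 (0.94) and SLC1A4 (0.58) rose and SLC6A9 (-0.87) fell, and each passed in all 9 fits that left out a library. SLC7A11 held 1 value that was not whole in DU145-DR and 0 in ARCaPM-DR, where it rose by 1.79.

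For the other lists, EIF2B1 (0.56) was the 1 eIF2 gene of 12 called in ARCaPM-DR, and in DU145-DR 0 of 12 were called by limma or edgeR and 1 by DESeq2, with 6 at an unadjusted p under 0.05. Cytosolic elongation and termination factors had 0 of 10 called by limma or edgeR in each line, and DESeq2 called 1 in DU145-DR. At an unadjusted p under 0.05 there were 4 in DU145-DR (list median -0.16), 0 in 22Rv1-DR (-0.08) and 1 in ARCaPM-DR (-0.21), where 4 passed and were lower without shGATA2a replicate 2. Mitochondrial translation factors had MTRF1L higher in DU145-DR (0.52) and GFM1 (0.59) and GFM2 (0.39) higher in ARCaPM-DR, of 11. GFM2 was lost in 4 of 9 fits that left out a library and GFM1 in 1, while MTRF1L passed in all 9, and without shGATA2a replicate 2 the number higher in ARCaPM-DR was 4. The interferon list, set beside WARS, had 3 of 11 measured genes higher and 1 lower in DU145-DR, and 5 of 13 higher and 1 lower in ARCaPM-DR, beside the shares of all genes given above (8.72% and 7.98%, and 9.86% and 8.62%). The number higher was 1 in DU145-DR without Control replicate 1 or shGATA2a replicate 1. In ARCaPM-DR it was 2 without Control replicate 3 and 3 without Control replicate 1, Control replicate 2, shGATA2a replicate 1 or shGATA2b replicate 1. The number lower was 0 without Control replicate 1 in DU145-DR, and without Control replicate 1, Control replicate 3, shGATA2b replicate 2 or shGATA2b replicate 3 in ARCaPM-DR. With the replicate number as a block, the counts in DU145-DR were 9 up and 1 down for the ATF4 list, 5 and 2 for transporters, 5 and 1 for charging partners, 5 and 1 for eIF2 genes, 2 and 5 for elongation factors and 4 and 0 for mitochondrial factors, where 19.6% of all genes rose and 19.2% fell. WARS itself rose in DU145-DR and fell in ARCaPM-DR.

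**Figure D5:**
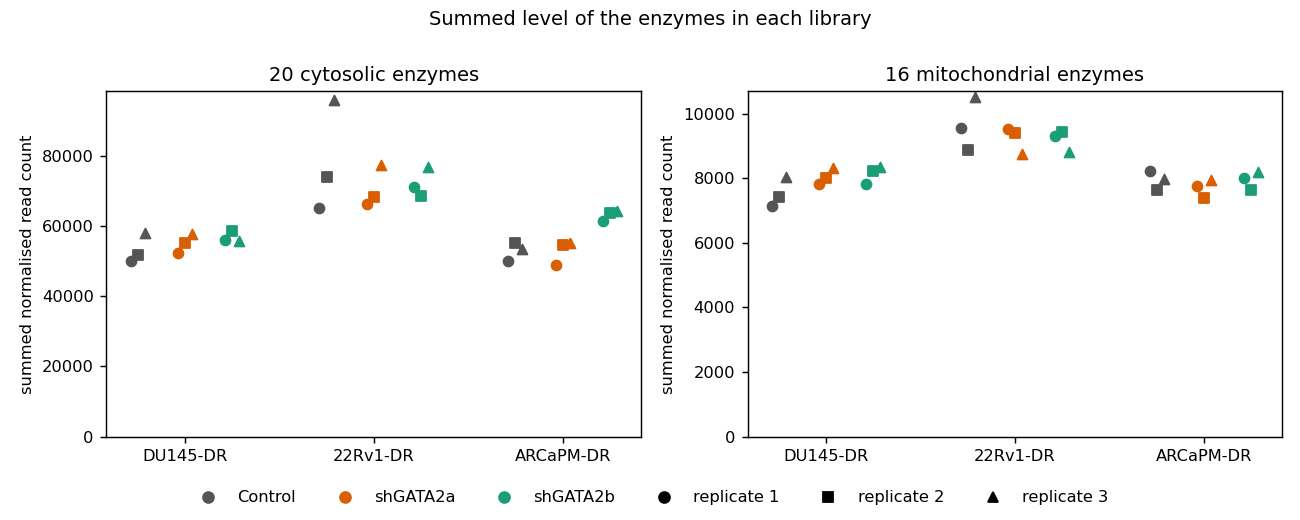
Summed normalised read count of the 20 cytosolic and 16 mitochondrial enzyme genes in each library, by line, hairpin and replicate number. The 22Rv1-DR Control replicate 3 library, at 96210 for the cytosolic sum, is the highest of its line. In ARCaPM-DR the 3 shGATA2b libraries lie above the other 6 for the cytosolic sum but not for the mitochondrial sum.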

How the data were processed

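RNA sequencing of total RNA was used. Per the submitters' processing notes, TopHat2 2.0.9 and Cufflinks 1.3.0 were run with the hg19 (GRCh37) build; no source used here gives the counting program or its strand setting. The authors deposited one signal value per gene and library, which behaves as a read count divided by one size factor per library. Dividing by that step gave whole reads (within 0.005 reads) for 99.954% of values above 0, and 199 values in 58 genes were not whole. No member value was among them. Replicate pairs differed by more than counting noise (chi-square per degree of freedom 6.4 to 104).

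Values were transformed as log2(value + 1), and each line was fitted alone in limma 3.58.1 under R 4.3.3 (trended prior variance). Genes needed 10 or more in 3 or more libraries of the fit, with Benjamini-Hochberg adjustment over all genes tested and a threshold of 0.05. Controls of the 3 lines were fitted together, and so were all 27 libraries for differences between lines. edgeR 4.0.16 and DESeq2 1.42.0 on recovered reads were alternatives, beside other pseudocounts, filters, scalings, a replicate block and leaving out each library. Tested on simulated data, log2 changes of 1 were recovered in 100% of genes in each line's fit. Changes of 0.5 were recovered in 43% for DU145-DR and 22Rv1-DR and 33% for ARCaPM-DR. In the test of differences between lines, 86% were recovered at a size of 1 and 8% at 0.5. Every simulated gene and line had the same spread setting, with no pairing and no outlying library, and changed genes had a mean of at least 50. Recovery at the spread of the real libraries was not tested.

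Values in each library are given for up to 6 members per line past the threshold whose groups do not overlap, with a mean of at least 50 and the largest change; for baseline up to 3 per pair with the largest difference; from each list up to 4 called genes. The members and lists were chosen with earlier results of these data known. Replicate numbers were taken to pair libraries where every same-number pair correlated above 0.1: the lowest was 0.28 in DU145-DR and 0.21 in 22Rv1-DR. This pairing is read from the values alone, because no label explains the numbers. The main fits, with their counts, SE and adjusted p, carry no replicate term in any line. Fits with the replicate block are given beside them.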

Additional observations from a re-analysis of the deposited data

Results flagged for a closer look

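The change with knockdown differed between the 3 lines for 3 enzyme genes, by the F test of the joint limma fit. The adjusted p was 6.4e-06 for LARS2, 5.3e-05 for WARS and 0.028 for TARS. LARS2 fell in ARCaPM-DR and 22Rv1-DR and had a log2 change of -0.01 in DU145-DR. WARS rose in DU145-DR and fell in ARCaPM-DR. TARS rose in ARCaPM-DR (0.42) and had -0.16 in 22Rv1-DR. The LARS2 and WARS differences passed in all 27 fits that left out a library, with adjusted p of at most 6.2e-05 and 4.3e-04. TARS lost the threshold in 4 of those 27 fits (adjusted p 0.051 to 0.0763): without 22Rv1-DR shGATA2b replicate 2 or Control replicate 3, and without ARCaPM-DR Control replicate 1 or 3. It also lost it with quantile normalisation (adjusted p = 0.105) and in edgeR (adjusted p = 0.0747). Over its other alternatives the adjusted p ran from 0.00186 to 0.0354.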

How the results depend on the processing

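No change listed for a single called gene reversed its direction. Counts and F tests carry no direction, so they could not do so. With the replicate number as a block, 11 enzyme genes rose in DU145-DR (19.6% of all genes) and 17 differed between lines (26.2%). In ARCaPM-DR 11 rose, 10 fell and 6 differed between hairpins. Calls rose over all genes too: the block called 5885 of 13079 in ARCaPM-DR, 2925 higher and 2960 lower (2418 without it). It called 5184 in DU145-DR (2231) and 166 in 22Rv1-DR (55, and 191 by DESeq2). The numbers were not taken to pair the ARCaPM-DR libraries, where the lowest same-number correlation was 0.06 (median 0.58) and 7 of 9 libraries correlated best with their own number. Counts for single hairpins moved too: in ARCaPM-DR from 1 to 4 up and 6 to 9 down for shGATA2a, and from 6 to 13 up and 4 to 7 down for shGATA2b. So did the pairwise differences in knockdown effect, from 3 to 12 members for ARCaPM-DR minus 22Rv1-DR, 4 to 11 for ARCaPM-DR minus DU145-DR and 1 to 5 for 22Rv1-DR minus DU145-DR. In 1 fit of all 27 libraries, 0 rose and 1 fell in DU145-DR and 2 fell in 22Rv1-DR. DESeq2 called 3 genes between hairpins in ARCaPM-DR and 6 between lines. Shares of all genes are not given here for these DESeq2 counts or for the blocked hairpin and pairwise counts. No rise particular to the enzymes can therefore be read from them. Without the 58 genes with values that are not whole, chosen after seeing the data, 0 fell in 22Rv1-DR, and 1 gene in all was called there. The causes were not tested.

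Leaving out each library in turn gave 1 to 7 up and 1 to 4 down in DU145-DR, 0 to 0 down in 22Rv1-DR, 2 to 6 up and 3 to 8 down in ARCaPM-DR, 0 to 1 between ARCaPM-DR hairpins and 2 to 5 between lines. The library with the fewest reads (3435702) was replicate 3 of shGATA2a in ARCaPM-DR, and the part of depth in these results was not tested.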
